A study of Mus musculus with 9 samples.

Results

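The genes described here encode sensors of RNA and DNA, an adaptor (Mavs), a transcription factor (Irf3) and an RNA-editing enzyme (Adar). The 10 genes were Ddx58, Ifih1, Dhx58, Mavs, Tlr3, Zbp1, Aim2, Eif2ak2, Adar and Irf3. They were taken by gene name from the deposited count table, where 10 of the 54532 genes carried these names, and all 10 had enough reads to be tested. Bulk RNA-seq had been performed on cultured adipose-derived stem cells (ASCs), the stromal progenitors of fat tissue, from C57BL/6 mice. Each group held 3 libraries, from subcutaneous adipose tissue (Sub-ASCs), abdominal adipose tissue (Ab-ASCs) and the fat around arteries (PVASCs). All cells had been grown in the same kind of stem cell medium and were harvested at passages 3 to 6, the labels name no treatment or genotype, and the age of the mice was not given in the sources used here. Nothing in these sources says that the libraries of a group came from separate mice or cultures, so each p-value measures only the spread between these libraries, which may be technical.

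Cells detect foreign or misplaced nucleic acid with several families of proteins. RIG-I (encoded by Ddx58) and MDA5 (Ifih1) are helicases that bind double-stranded RNA in the cytosol and pass the signal to MAVS on mitochondria, after which the kinases TBK1 and IKKε phosphorylate the transcription factor IRF3 and interferons are made. TLR3 senses double-stranded RNA in endosomes, AIM2 and cGAS sense DNA in the cytosol, ZBP1 binds Z-form nucleic acid, PKR (Eif2ak2) stops translation and ADAR1 (Adar) edits the cell's own double-stranded RNA. Many of these sensors are themselves targets of interferon, which is known to raise their transcription in fibroblasts and other stromal cells, whereas MAVS and IRF3 are usually made constitutively.

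Library totals were between 20524173 and 29881036 reads, so that 3 reads in a library equalled 0.0917 to 0.161 CPM (counts scaled to library size). Ab-ASC replicate 1 stood apart from its group, with a chi-square per degree of freedom of 27.6 against replicate 2 and 17.4 against replicate 3, while the latter pair gave 4.10. Where a call or a size limit for one of the 10 genes changed without this library, both values are given. All 7 ASC markers listed (Ly6a, Thy1, Eng, Pdgfra, Pdgfrb, Cd44 and Nt5e) were expressed in every library. Their summed level was 6024 to 6067 CPM in Sub-ASCs, 1875 to 1985 CPM in Ab-ASCs and 2457 to 2551 CPM in PVASCs, although Ly6a (Sca1) was at 19.8 to 25.7 CPM in Ab-ASCs. The markers did not move together. Against Sub-ASCs 3 were higher and 4 lower in PVASCs (34.7% and 35.7% of all genes). In Ab-ASCs 2 were higher and 5 lower (37.0% and 38.3%). Ly6a and Pdgfra had log2 fold changes of −4.20 and −3.03 in PVASCs and of −6.56 and −2.61 in Ab-ASCs. Of 12 haematopoietic and macrophage markers 9 were tested, Siglech had no read in any library, and Cx3cr1 and Flt3 had at most 4 reads. The summed haematopoietic level was 252 to 257 CPM in Sub-ASCs, 305 to 399 CPM in Ab-ASCs and 293 to 302 CPM in PVASCs, most of it from Lyz2. Ptprc, the pan-leukocyte CD45 gene, had 204 to 246 reads in Sub-ASCs, 21 to 35 in Ab-ASCs and 72 to 96 in PVASCs, and 7 of the 9 tested markers were lower and 2 higher (Csf1r and Lyz2) in each of the other groups than in Sub-ASCs, where 35.7% of all genes were lower and 34.7% higher in PVASCs and 38.3% and 37.0% in Ab-ASCs. The summed level of 6 endothelial markers was 176 to 191 CPM in Sub-ASCs, 63.7 to 66.2 CPM in Ab-ASCs and 764 to 768 CPM in PVASCs, and that of 6 mesothelial markers was 1.30 to 2.28, 82.6 to 85.9 and 31.7 to 32.7 CPM. The mitochondrial share of reads was 0.890% to 1.09% in Sub-ASCs, 0.580% to 0.824% in Ab-ASCs and 1.28% to 1.36% in PVASCs. The part of these differences in the results for the sensors was not tested, and in bulk RNA fewer cells that express a gene cannot be told apart from less RNA of it per cell.

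Most of the sensor genes and Adar were higher in Sub-ASCs than in both other groups, and Mavs and Irf3 were not. All of Ddx58, Ifih1, Dhx58, Tlr3, Zbp1, Eif2ak2 and Adar passed the test as higher in Sub-ASCs than in both other groups, which is 7 of 10 genes where 28.7% of the genes tested did so. Calls were made with edgeR's quasi-likelihood test on all 9 libraries and a Benjamini-Hochberg adjusted p below 0.05 over the 16526 genes tested. Between PVASCs and Sub-ASCs 8 of the 10 genes were called, all lower in PVASCs, against a background of 70.4% of genes called (35.7% higher in Sub-ASCs and 34.7% higher in PVASCs). Between Ab-ASCs and Sub-ASCs 9 were called, 8 lower and 1 (Irf3) higher in Ab-ASCs, where 75.3% of genes were called (38.3% higher in Sub-ASCs and 37.0% higher in Ab-ASCs). PVASCs and Ab-ASCs differed in 6 genes, 4 higher and 2 lower in PVASCs, and 56.9% of genes were called in that comparison (24.7% higher in PVASCs and 32.1% higher in Ab-ASCs).

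Because most genes were called in every pair of groups, the size of a change says more than the call. A call together with a log2 fold change of 1 or more in either direction was found for 7 of the 10 genes in PVASCs against Sub-ASCs, where 32.2% of genes met both limits. For Ab-ASCs with Sub-ASCs as the reference 8 genes met them, with a background of 37.8%, while in PVASCs against Ab-ASCs only Eif2ak2 and Aim2 did, with a background of 15.4%. Taking the 10 genes together, the median log2 fold change was −1.5 for PVASCs and −2.09 for Ab-ASCs with Sub-ASCs as the reference, beside −0.01 and −0.03 over all genes tested. In PVASCs against Ab-ASCs it was 0.02, beside −0.06 over all genes tested. The comparisons share libraries and are therefore set side by side and not treated as independent.

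**Figure D1:**
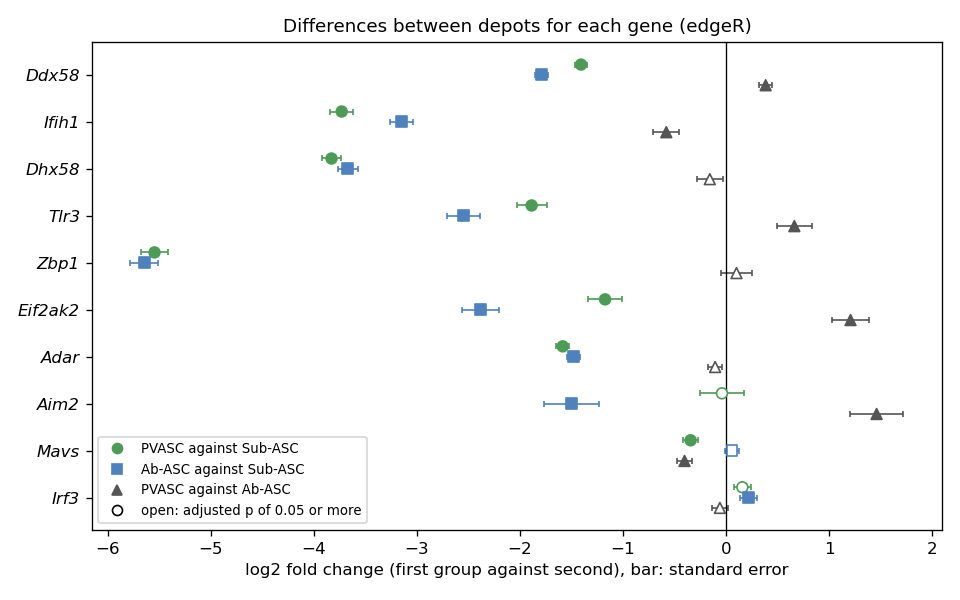
Log2 fold changes of the 10 genes with SEs from edgeR's quasi-likelihood fit, 1 row per gene and 1 symbol per pair of groups, as the key defines them. Zbp1, Dhx58 and Ifih1 lie farthest below 0 in both comparisons with Sub-ASCs, while Mavs and Irf3 stay between −0.40 and 0.22 in every pair.

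The sequences around the transcription start are shown for the genes in which a letter pattern of interferon control was found. RefSeq promoter windows on GRCm38.p6, from 250 bases before to 50 after each start site, were at hand for 8 of the 10 genes, as 10 windows. Zbp1 and Dhx58 had no window. Both strands were searched for GAAANNGAAA, the core of the interferon-stimulated response element, and for TTCNNNGAA, the gamma-activated site. The core was present in the windows of Ddx58, Eif2ak2 and Ifih1, and in 3.44% of all 32851 windows. It was not in these windows of Mavs, Irf3, Tlr3, Aim2 or Adar, although Tlr3 and Adar were also higher in Sub-ASCs than in both other groups. The stretches, read 5′ to 3′ on the strand of the gene with the core in capitals, come from chr4:40239804-40239833 (minus strand), chr17:78882535-78882564 (minus strand) and chr2:62646206-62646233 (minus strand), and the core begins at base 3, 19 and 33 after the start site.
Ddx58: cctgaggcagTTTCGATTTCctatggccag
Eif2ak2: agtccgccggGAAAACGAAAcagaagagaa
Ifih1: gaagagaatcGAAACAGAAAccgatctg
In Ddx58 the core lies on the opposite strand and is read there as its reverse complement. The gamma-activated site was found in 8.30% of all windows. It occurred in a window of Adar, at chr3:89730730-89730758 (plus strand, from base 23 after an internal start site whose following bases were not found in GENCODE M21 transcripts), and in that of Eif2ak2, at chr17:78882732-78882760 (minus strand, from base −178), with the site in capitals.
Adar: gggaagccttTTCAAGGAAacgaaagtga
Eif2ak2: ctgcagagctTTCCCAGAAtggaagccag
A match describes letters only. Neither the binding of a factor nor the activity of these sites was measured.

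Among the cytosolic RNA helicases, the genes of MDA5 and LGP2 fell further below Sub-ASCs in the other depots than that of RIG-I. Ddx58 (ENSMUSG00000040296, chr4:40203773-40239828, minus strand), whose product RIG-I detects short double-stranded RNA with a 5′ triphosphate, was at 122.6, 138 and 123.1 CPM in Sub-ASCs. It was at 37.4, 36.4 and 37.0 CPM in Ab-ASCs and at 46.6, 49.8 and 48.1 CPM in PVASCs. No groups overlapped, and the order Sub-ASC, PVASC, Ab-ASC held in every library. The log2 fold change was −1.41 (SE 0.06, adjusted p = 5.17e-10, edgeR's quasi-likelihood test) in PVASCs and −1.79 (SE 0.06, adjusted p = 6.79e-11) in Ab-ASCs against Sub-ASCs, or 2.65-fold and 3.46-fold lower. PVASCs exceeded Ab-ASCs by a log2 fold change of 0.38 (SE 0.06, adjusted p = 0.000273, edgeR), a 1.31-fold difference.

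Ifih1 (ENSMUSG00000026896, chr2:62595798-62646255, minus strand) encodes MDA5, which binds long double-stranded RNA. Its levels were 70.7, 75.3 and 72.6 CPM in Sub-ASCs, 6.17, 9.38 and 8.87 CPM in Ab-ASCs, and 5.56, 5.39 and 5.50 CPM in PVASCs. PVASCs were the lowest group here, below every Ab-ASC library, in contrast to the order seen for Ddx58. The log2 fold change against Sub-ASCs was −3.73 (SE 0.11, adjusted p = 1.70e-11, edgeR's quasi-likelihood test) in PVASCs, 13.3-fold lower, and −3.15 (SE 0.11, adjusted p = 7.36e-11) in Ab-ASCs, 8.88-fold lower. PVASCs were 1.49-fold below Ab-ASCs (log2 fold change −0.58, SE 0.13, adjusted p = 0.00218, edgeR), and the value was −0.74 without Ab-ASC replicate 1, the lowest Ab-ASC library.

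Dhx58 (ENSMUSG00000017830, chr11:100694884-100704271, minus strand) encodes LGP2, a helicase without signalling domains that modulates the other two. It was at 34.4, 34.9 and 39.1 CPM in Sub-ASCs, at 2.90, 2.71 and 2.90 CPM in Ab-ASCs, and at 2.66, 2.34 and 2.61 CPM in PVASCs. Sub-ASCs lay far above both other groups, 14.2-fold above PVASCs (log2 fold change −3.83, SE 0.10, adjusted p = 2.81e-12, edgeR's quasi-likelihood test) and 12.7-fold above Ab-ASCs (−3.67, SE 0.10, adjusted p = 5.68e-12). The PVASC libraries were just below the Ab-ASC ones without overlap, but the difference did not pass the test (log2 fold change −0.16, SE 0.12, adjusted p = 0.347, edgeR). Dhx58 shares 141 of its exonic bases (4.31%) with the antisense gene Dhx58os, which had 21 to 50 reads in Sub-ASCs, 149 to 202 in Ab-ASCs and 32 to 45 in PVASCs. In Ab-ASCs Dhx58 itself had only 54 to 65 reads, and whether the counting used strand was not given in the sources used here, so reads from the shared bases cannot be told apart.

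The balance of RIG-I to MDA5 transcripts differed between depots. The ratio of Ddx58 to Ifih1 reads per kilobase within a library, which does not depend on library scaling, was 2.01, 2.12 and 1.96 in Sub-ASCs. It was 6.98, 4.49 and 4.82 in Ab-ASCs and 9.69, 10.7 and 10.1 in PVASCs, and no groups overlapped. On the log2 scale the ratio was 1.02 ± 0.06 (SD, n = 3) in Sub-ASCs, 2.41 ± 0.34 in Ab-ASCs and 3.34 ± 0.07 in PVASCs. An exact permutation test over all 1680 assignments of the 9 libraries gave p = 0.00357, the smallest possible with this design, and 0.00536 after Benjamini-Hochberg adjustment over the 3 ratios computed. The log2 ratio of Dhx58 to Ifih1 was 0.31 ± 0.11 in Sub-ASCs, −0.17 ± 0.36 in Ab-ASCs and 0.21 ± 0.08 in PVASCs (SD, n = 3, exact permutation p = 0.0893, also after adjustment). In Ab-ASC replicate 1 the log2 ratio of 0.24 lay among the Sub-ASC and PVASC values, and without it the adjusted exact permutation p was 0.0143. With all libraries and the labels permuted within replicate numbers (a replicate block) it was 0.0278, so the call depended on more than 1 choice.

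**Figure D2:**
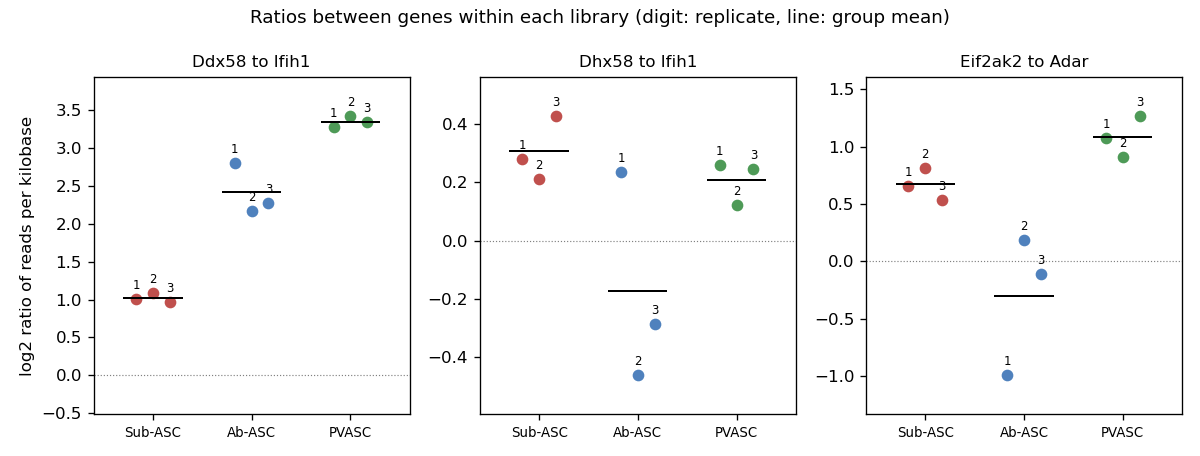
Log2 ratios of reads per kilobase of 2 genes within each library, by group, with 1 point per library and a line at the group mean. The Ddx58 to Ifih1 ratio separates the groups at about 1.02, 2.41 and 3.34, while Ab-ASC replicate 1 lies away from its group in the Eif2ak2 to Adar ratio.

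The adaptor downstream of both helicases showed a small change of another kind. Mavs (ENSMUSG00000037523, chr2:131234063-131248025, plus strand) was at 32.4, 35.1 and 31.7 CPM in Sub-ASCs, at 36.7, 31.8 and 34.8 CPM in Ab-ASCs, and at 26.0, 25.4 and 26.7 CPM in PVASCs. PVASCs were below every other library, whereas the Sub-ASC and Ab-ASC libraries overlapped. The log2 fold change of Mavs was −0.34 (SE 0.07, adjusted p = 0.000796, edgeR's quasi-likelihood test) in PVASCs against Sub-ASCs and −0.40 (SE 0.07, adjusted p = 0.000445) against Ab-ASCs. Ab-ASCs against Sub-ASCs gave 0.06 (SE 0.07, adjusted p = 0.465, edgeR).

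Irf3 (ENSMUSG00000003184, chr7:44997648-45002848, plus strand), the transcription factor activated at the end of this chain, was nearly level. It was at 32.1, 26.6 and 32.3 CPM in Sub-ASCs, at 36.7, 35.1 and 34.0 CPM in Ab-ASCs, and at 35.4, 32.9 and 33.1 CPM in PVASCs. The lowest value was that of Sub-ASC replicate 2, and the PVASC and Ab-ASC ranges overlapped. Irf3 was the only one of the 10 genes called higher in Ab-ASCs than in Sub-ASCs, with a log2 fold change of 0.22 (SE 0.08, adjusted p = 0.0274, edgeR's quasi-likelihood test). That call was lost without Sub-ASC replicate 2 (0.14, adjusted p = 0.10, edgeR). The value was 0.16 (SE 0.08, adjusted p = 0.0950) in PVASCs against Sub-ASCs, and this was called without Ab-ASC replicate 1 (0.16, adjusted p = 0.0411, edgeR) and with only these groups fitted (0.17, adjusted p = 0.0432). Against Ab-ASCs it was −0.06 (SE 0.08, adjusted p = 0.544, edgeR) and turned to 0.017 in a fit of those groups alone.

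Tlr3 and Zbp1 sense nucleic acid outside the RIG-I-like family. Tlr3 (ENSMUSG00000031639, chr8:45395665-45411080, minus strand), the endosomal receptor for double-stranded RNA, was at 25.5, 30.3 and 23.3 CPM in Sub-ASCs, at 3.06, 5.25 and 5.04 CPM in Ab-ASCs, and at 6.82, 7.39 and 7.19 CPM in PVASCs. All groups were separate, with PVASCs in the middle. Tlr3 was lower than in Sub-ASCs by 3.70-fold in PVASCs (log2 fold change −1.89, SE 0.14, adjusted p = 1.29e-07, edgeR's quasi-likelihood test) and 5.86-fold in Ab-ASCs (−2.55, SE 0.16, adjusted p = 1.74e-08). PVASCs were 1.58-fold above Ab-ASCs (0.66, SE 0.17, adjusted p = 0.00599, edgeR), or 0.47 on the log2 scale without Ab-ASC replicate 1, which had the lowest Tlr3 level of all.

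Zbp1 (ENSMUSG00000027514, chr2:173206612-173218923, minus strand), which binds Z-form RNA and DNA and can recruit the necroptosis kinase RIPK3, had the widest range of the 10 genes. It was at 253, 263 and 259 CPM in Sub-ASCs, at 6.71, 3.73 and 5.17 CPM in Ab-ASCs, and at 5.38, 5.49 and 5.69 CPM in PVASCs. Sub-ASCs were 46.8-fold above PVASCs (log2 fold change −5.55, SE 0.13, adjusted p = 1.38e-12, edgeR's quasi-likelihood test) and 50.2-fold above Ab-ASCs (−5.65, SE 0.13, adjusted p = 1.53e-12). By absolute log2 fold change these values ranked 458 and 427 among the 16526 genes tested. The PVASC values lay inside the Ab-ASC range, and the log2 fold change between these groups was 0.10 (SE 0.15, adjusted p = 0.588, edgeR). It was 0.31 (adjusted p = 0.0311) without Ab-ASC replicate 1 and −0.10 without Ab-ASC replicate 2, so its sign and its call rested on single libraries.

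Aim2 (ENSMUSG00000037860, chr1:173350879-173466040, plus strand), which binds double-stranded DNA and assembles an inflammasome, was the only sensor whose level was not called different between PVASCs and Sub-ASCs. It had the fewest reads of the 10 genes, with 40 to 48 reads in Sub-ASCs, 10 to 15 in Ab-ASCs and 44 to 63 in PVASCs. These counts correspond to 2.06, 1.57 and 1.64 CPM, to 0.805, 0.445 and 0.624 CPM, and to 1.93, 1.49 and 1.69 CPM. Ab-ASCs lay below every other library, while Sub-ASCs and PVASCs overlapped. Aim2 was lower in Ab-ASCs by a log2 fold change of −1.5 against Sub-ASCs (SE 0.26, adjusted p = 0.000231, edgeR's quasi-likelihood test), and PVASCs exceeded Ab-ASCs by 1.46 (SE 0.26, adjusted p = 0.000493), or 2.75-fold. The difference between PVASCs and Sub-ASCs was −0.04 on the log2 scale (SE 0.21, adjusted p = 0.874, edgeR). The gene body of Aim2 overlaps that of Cadm3 on the opposite strand, but their exons share no base.

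PKR and ADAR1 both act on double-stranded RNA, and their transcripts were ordered differently. Eif2ak2 (ENSMUSG00000024079, chr17:78852564-78882573, minus strand) encodes PKR, the kinase that phosphorylates eIF2α when it meets double-stranded RNA. It was at 87.2, 97.8 and 85.0 CPM in Sub-ASCs, at 10.7, 22.2 and 18.5 CPM in Ab-ASCs, and at 38.6, 37.9 and 43.2 CPM in PVASCs. All groups were separate, with PVASCs between the others. The log2 fold change was −1.17 (SE 0.17, adjusted p = 4.30e-05, edgeR's quasi-likelihood test) in PVASCs and −2.38 (SE 0.18, adjusted p = 1.14e-07) in Ab-ASCs against Sub-ASCs, or 2.26-fold and 5.21-fold lower. PVASCs were 2.31-fold above Ab-ASCs (1.21, SE 0.18, adjusted p = 0.000135, edgeR). Without Ab-ASC replicate 1, the lowest library, this was 0.97, still called but under the limit of 1, which leaves 1 gene in place of 2 past that limit in PVASCs against Ab-ASCs.

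Adar (ENSMUSG00000027951, chr3:89715022-89753446, plus strand), which converts adenosine to inosine in double-stranded RNA, was at 87.7, 88.2 and 93.0 CPM in Sub-ASCs. It was at 33.9, 31.0 and 31.6 CPM in Ab-ASCs and at 29.0, 32.1 and 28.5 CPM in PVASCs, and only these latter groups overlapped. Sub-ASCs were 3.0-fold above PVASCs (log2 fold change −1.59, SE 0.07, adjusted p = 2.99e-10, edgeR's quasi-likelihood test) and 2.79-fold above Ab-ASCs (−1.48, SE 0.07, adjusted p = 6.39e-10). PVASCs against Ab-ASCs gave −0.11 (SE 0.07, adjusted p = 0.197, edgeR). Of the exonic bases of Adar, 16.8% are shared with Chrnb2 on the opposite strand, which had 9 to 47 reads per library.

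Within each library the ratio of Eif2ak2 to Adar reads per kilobase was 1.58, 1.76 and 1.45 in Sub-ASCs, 0.502, 1.14 and 0.928 in Ab-ASCs, and 2.11, 1.87 and 2.40 in PVASCs. PVASCs had the highest ratio and Ab-ASCs the lowest, without overlap. The log2 ratio was 0.67 ± 0.14 (SD, n = 3) in Sub-ASCs, −0.31 ± 0.62 in Ab-ASCs and 1.08 ± 0.18 in PVASCs (exact permutation p = 0.00357, adjusted p = 0.00536). The Ab-ASC ratio of 0.502 came from replicate 1, and the ratios of the other Ab-ASC libraries were also below those of every Sub-ASC and PVASC library. The test, already at its smallest possible p, cannot show how far the result rests on replicate 1.

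**Figure D3:**
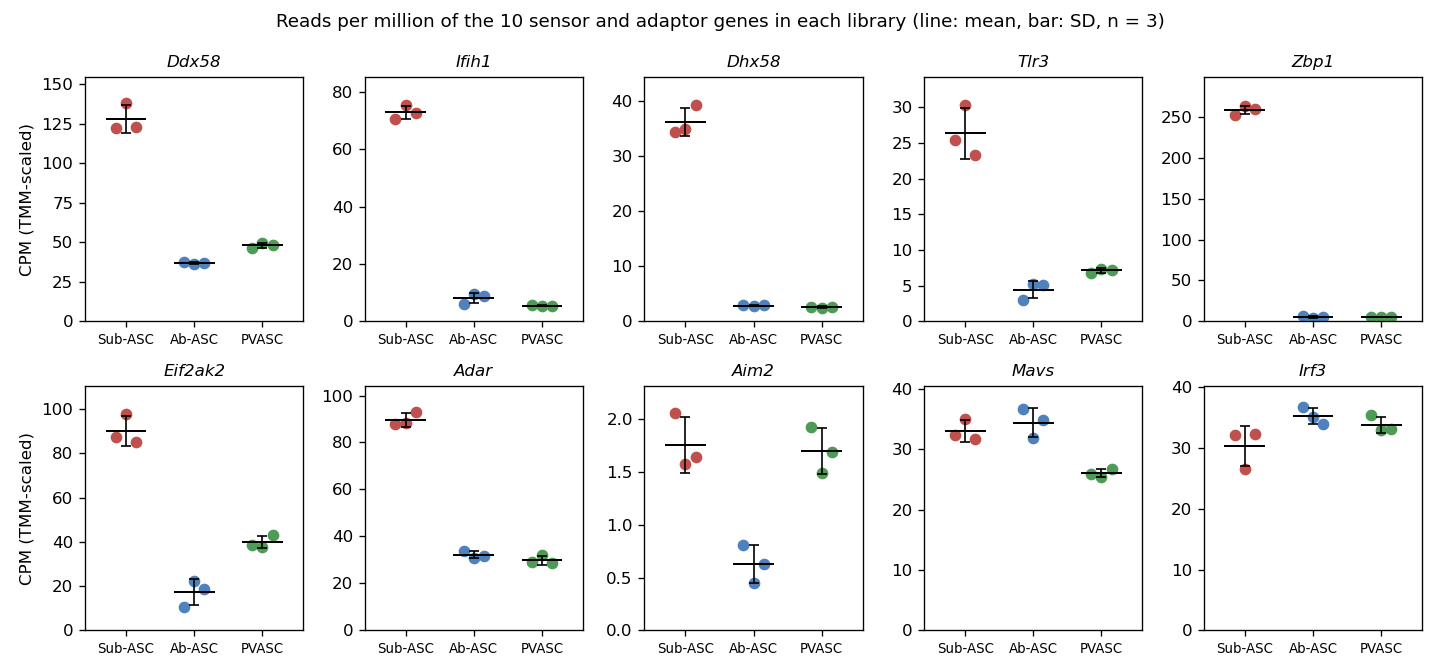
CPM of each of the 10 genes by group, with 1 point per library and the mean with its SD (n = 3), on linear axes that start at 0. Sub-ASCs stand above both other groups in the panels of Ddx58, Ifih1, Dhx58, Tlr3, Zbp1, Eif2ak2 and Adar, whereas Aim2 is low only in Ab-ASCs and Mavs and Irf3 vary little.

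To compare genes with each other, levels were scaled to gene length and sequencing depth (FPKM, calculated from the counts, the gene lengths and the library totals). In Sub-ASCs Zbp1 was far above the others at 71.7 ± 1.45 FPKM (SD, n = 3), higher than 96.1% of the genes tested. Ddx58 (17.7 ± 1.24) and Eif2ak2 (17.2 ± 1.35) followed and did not differ beyond their spread, here taken as the sum of both SDs. The same held for Dhx58 (10.8 ± 0.748) and Adar (10.8 ± 0.330), and also for Dhx58 and Mavs (9.67 ± 0.541), while Adar lay above Mavs by more than the spread. Ifih1 (8.74 ± 0.289) and Irf3 (8.62 ± 0.912) were also alike within their spread, with Tlr3 (4.96 ± 0.688) and Aim2 (0.491 ± 0.0743) last.

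Mavs and Irf3 stood higher in the order in the other depots. In Ab-ASCs Mavs (9.60 ± 0.473 FPKM) and Irf3 (9.57 ± 0.232 FPKM) led, level within their spread. Ddx58 (4.89 ± 0.0698), Adar (3.70 ± 0.0803) and Eif2ak2 (3.15 ± 1.14) came next, of which the latter pair did not differ beyond the spread. Zbp1 was at 1.37 ± 0.359, Ifih1 at 0.934 ± 0.218, Dhx58 at 0.809 ± 0.0224, Tlr3 at 0.801 ± 0.233 and Aim2 at 0.166 ± 0.0439 FPKM, and from Zbp1 down to Tlr3 each gap to the next gene was within the spread. In PVASCs Irf3 was first at 10.7 ± 0.468 FPKM, and Eif2ak2 (8.52 ± 0.630) and Mavs (8.49 ± 0.232) followed together. Ddx58 (7.46 ± 0.220), Adar (4.02 ± 0.243), Zbp1 (1.71 ± 0.050), Tlr3 (1.5 ± 0.0562), Dhx58 (0.846 ± 0.0606), Ifih1 (0.734 ± 0.0145) and Aim2 (0.531 ± 0.0696) came after them in FPKM. Zbp1 thus stood above only 36.8% of tested genes in Ab-ASCs and 35.7% in PVASCs, while Irf3 stood above 69.2%, 72.0% and 72.6% in Sub-ASCs, Ab-ASCs and PVASCs.

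**Figure D4:**
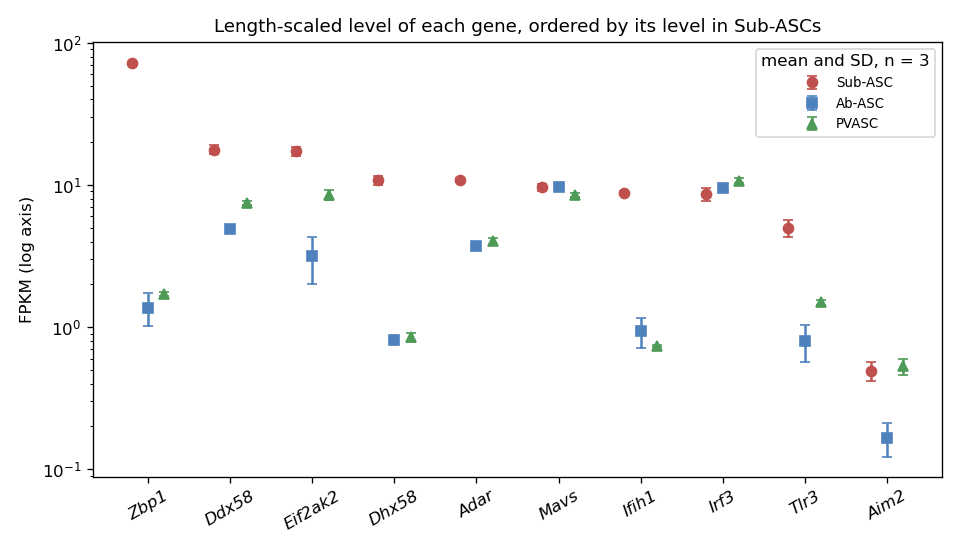
Mean FPKM of the 10 genes in each group with SDs (n = 3), on a log axis. Zbp1 leads in Sub-ASCs at 71.7 FPKM but is below Mavs and Irf3 in the other groups, and Aim2 is the lowest gene in all 3 groups.

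Genes with the most similar profile were searched for among all tested genes by Pearson's r of log2 CPM over the 9 libraries. These values describe likeness only, because the libraries form 3 groups and any gene that differs between depots in the same proportion scores high. Zbp1 was closest to Man2b2 (r = 0.9996), Adar to Rxra (r = 0.9997), Dhx58 to Col3a1 (r = 0.9995), Ifih1 to Slc44a1 (r = 0.999) and Ddx58 to Ackr2 (r = 0.999). Tlr3 was closest to Rapgef2 (r = 0.998) and Eif2ak2 to Zfp704 (r = 0.997). From 55 (Eif2ak2) to 550 (Dhx58) genes had an r above 0.99 with these 7 genes. Aim2 (Baiap2, r = 0.981), Mavs (Stat6, r = 0.978) and Irf3 (Gm15418, r = 0.957) had none.

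The partners that carry the signal from the helicases to IRF3 and NF-κB were mostly lower outside Sub-ASCs. Of 25 such genes, all tested, 16 were lower and 3 higher in PVASCs with Sub-ASCs as the reference, and 15 were lower and 5 higher in Ab-ASCs. Over all genes tested 35.7% were called lower and 34.7% higher in PVASCs, and 38.3% and 37.0% in Ab-ASCs. The median log2 fold change was −0.46 and −0.40 in these comparisons, against −0.01 and −0.03 over all genes tested. Past a log2 fold change of 1, 5 of the 25 were lower and none higher in PVASCs, where 32.2% of all genes passed this limit. In Ab-ASCs 7 were lower and 1 higher past it, beside 37.8% of all genes. Irf7, the interferon-inducible relative of IRF3, fell from 216 ± 9.06 CPM (SD, n = 3) in Sub-ASCs to 7.50 ± 1.83 in Ab-ASCs and 6.21 ± 0.440 in PVASCs. Trim25, the ubiquitin ligase of RIG-I, was at 148 ± 2.01, 49.8 ± 2.69 and 59.9 ± 1.05 CPM, and the kinase gene Ikbke at 74.9 ± 1.97, 19.8 ± 0.592 and 15.9 ± 1.68 CPM in Sub-ASCs, Ab-ASCs and PVASCs. Both were called lower than in Sub-ASCs in each of the other groups. Tbk1, the other kinase of IRF3, changed less (log2 fold change −0.57 in PVASCs and −0.44 in Ab-ASCs, adjusted p = 3.56e-05 and 0.000309, edgeR). Traf3 was higher in Ab-ASCs than in Sub-ASCs by 0.32 on the log2 scale and not called in PVASCs against Sub-ASCs (0.03).

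Between PVASCs and Ab-ASCs 5 of these partners were higher and 7 lower in PVASCs (background 24.7% of all genes higher and 32.1% lower), with a median log2 fold change of −0.09 beside −0.06 over all genes. Rnf125, a ubiquitin ligase that marks RIG-I for degradation, was at 16.5 ± 1.07 CPM (SD, n = 3) in Sub-ASCs, 2.43 ± 0.380 in Ab-ASCs and 5.78 ± 0.370 in PVASCs. Its log2 fold change in PVASCs against Ab-ASCs was 1.24, and that of Tbkbp1, an adaptor of TBK1, was 1.08 (adjusted p = 9.12e-06 and 4.94e-07, edgeR's quasi-likelihood test).

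The other endosomal receptors and their adaptors and chaperones were mostly lower outside Sub-ASCs. Of 13 genes tested from the list of 14, 12 were lower and none was higher in PVASCs with Sub-ASCs as the reference, 11 were lower and none higher in Ab-ASCs, and the medians were −0.97 and −0.70, beside −0.01 and −0.03 over all genes. The background was 35.7% of genes called lower in PVASCs and 38.3% in Ab-ASCs. Unc93b1, which carries TLR3, TLR7 and TLR9 to endosomes, was at 107 ± 3.79 CPM (SD, n = 3) in Sub-ASCs, 24.7 ± 2.77 in Ab-ASCs and 17.3 ± 0.220 in PVASCs. Ticam1, the adaptor TRIF used by TLR3, had log2 fold changes of −1.17 (PVASCs) and −1.15 (Ab-ASCs) relative to Sub-ASCs and of −0.02 between PVASCs and Ab-ASCs. Tlr7 was called lower in PVASCs than in Sub-ASCs (−1.04) and than in Ab-ASCs (−0.63). Tlr9 had 13, 12 and 20 reads in Sub-ASCs, 2, 0 and 0 in Ab-ASCs, and 3, 1 and 0 in PVASCs, at or under 3 reads in every library outside Sub-ASCs. In PVASCs against Ab-ASCs 2 genes of the list were higher, including Tlr8 (0.88), and 4 lower, with a median of −0.01 and a background of 24.7% of all genes higher and 32.1% lower.

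For cytosolic DNA sensing the calls stood beside a background of 70.4% of all genes called for PVASCs and 75.3% for Ab-ASCs, in nearly equal parts higher and lower. Of 17 genes tested from 19 listed, 8 were lower and 5 higher in PVASCs with Sub-ASCs as the reference, and 8 were lower and 7 higher in Ab-ASCs, with medians of −0.11 and 0.01. Past a log2 fold change of 1, 8 of these genes were lower and 1 was higher in PVASCs, and 6 were lower and 1 was higher in Ab-ASCs, beside 32.2% and 37.8% of all genes past this limit. The gene of cGAS, listed as Mb21d1, was lowest in Sub-ASCs at 5.65 ± 0.896 CPM (SD, n = 3), beside 10.9 ± 1.21 in Ab-ASCs and 8.92 ± 0.416 in PVASCs. It was called higher in PVASCs (log2 fold change 0.66) and in Ab-ASCs (0.95) than in Sub-ASCs. Its adaptor STING, listed as Tmem173, went the other way at 125 ± 4.77, 63.7 ± 3.39 and 51.0 ± 2.0 CPM in Sub-ASCs, Ab-ASCs and PVASCs.

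Enpp1, which degrades the messenger cGAMP, rose from 14.9 ± 1.1 CPM (SD, n = 3) in Sub-ASCs to 150.5 ± 6.70 in Ab-ASCs and 76.7 ± 2.06 in PVASCs. Samhd1, a dNTP hydrolase, was at 408 ± 9.71, 86.0 ± 2.44 and 72.7 ± 1.24 CPM in the same order. Members of the Ifi200 family next to Aim2 had the widest gaps of the list: Ifi205 went from 253 ± 24.3 CPM in Sub-ASCs to 1.34 ± 0.714 in Ab-ASCs and 0.878 ± 0.0640 in PVASCs, and Ifi203 from 292 ± 29.7 to 2.64 ± 0.556 and 2.84 ± 0.186. These genes are close copies of each other, so the split of reads among them is uncertain. Ifi204 of the same family was higher in PVASCs than in Ab-ASCs (log2 fold change 1.08), with Ab-ASC libraries at 10.9, 24.8 and 19.9 CPM. It was 1 gene of the list higher in that comparison, with 7 lower, a median of −0.20 and a background of 24.7% of all genes higher and 32.1% lower. Trex1 was listed with no read in any library, and all 1147 of its exonic bases are shared with Atrip, so no level can be given.

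The genes that act after ZBP1 and AIM2 did not all move with them. Of 11 inflammasome and necroptosis genes tested from 12, 8 were lower and 2 higher than in Sub-ASCs in PVASCs and likewise in Ab-ASCs (background 35.7% and 38.3% lower), with medians of −1.55 and −1.06. Pycard, the ASC speck adaptor of AIM2, was at 21.5 ± 2.18 CPM (SD, n = 3) in Sub-ASCs, 1.06 ± 0.158 in Ab-ASCs and 0.798 ± 0.195 in PVASCs. Casp1 was at 66.3 ± 6.54, 3.27 ± 0.883 and 7.08 ± 0.182 CPM, and was called higher in PVASCs than in Ab-ASCs (log2 fold change 1.1). The pore-forming gene Gsdmd fell by 1.53 on the log2 scale from Sub-ASCs to PVASCs and by 0.77 to Ab-ASCs.

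Ripk3 was lowest in Sub-ASCs, where Zbp1 was highest. It was at 42.4 ± 2.24 CPM (SD, n = 3) in Sub-ASCs, 123 ± 11.9 in Ab-ASCs and 59.6 ± 1.68 in PVASCs, called in every pair, with a log2 fold change of 1.54 in Ab-ASCs against Sub-ASCs (adjusted p = 1.42e-09, edgeR's quasi-likelihood test). Mlkl, the substrate of RIPK3, was at 114 ± 1.58, 37.3 ± 2.14 and 39.0 ± 1.61 CPM, higher in Sub-ASCs. Between PVASCs and Ab-ASCs 1 gene of the list was higher and 3 were lower (background 24.7% of all genes higher and 32.1% lower), with a median of 0.06, and Nlrp3 had the lowest value of those called (−1.64).

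With the same backgrounds of 70.4% and 75.3%, 7 of 11 genes of the eIF2α kinase branch around PKR were lower and 3 higher in PVASCs with Sub-ASCs as the reference, and 4 were lower and 4 higher in Ab-ASCs, with medians of −0.35 and −0.01. Past a log2 fold change of 1, no gene of the list was lower in either comparison. At this limit 2 were higher in PVASCs and 1 in Ab-ASCs, beside 32.2% and 37.8% of all genes in either direction. Prkra (PACT), a protein activator of PKR, had log2 fold changes of −0.56 and −0.50 in these comparisons, and Tarbp2 (TRBP), an inhibitor of PKR, of 1.07 and 1.32, all called. Eif2ak3 (PERK), the kinase of the unfolded protein response, was lower by log2 fold changes of −0.65 and −0.51, and Eif2ak4 (GCN2), the amino acid sensor, was called in PVASCs only (0.19, and −0.01 in Ab-ASCs). Eif2s1, which encodes the substrate eIF2α, was higher in PVASCs (1.01) and in Ab-ASCs (0.94) than in Sub-ASCs. In PVASCs against Ab-ASCs, where 56.9% of all genes were called, 1 gene was higher and 6 were lower with a median of −0.25. Ppp1r15a (−0.85) and Atf4 (−0.60) were among the lower genes. The phosphorylation of eIF2α was not measured.

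Beside Adar, genes for other proteins that edit or bind double-stranded RNA were counted against the same 70.4% and 75.3%. Of 8 tested from 10 listed, 3 were lower and 3 higher in PVASCs with Sub-ASCs as the reference, and 3 were lower and 2 higher in Ab-ASCs, with medians of 0.08 and −0.02. The second editing enzyme, Adarb1, was nearly level at 37.0 ± 1.46 CPM (SD, n = 3) in Sub-ASCs, 32.8 ± 1.32 in Ab-ASCs and 36.7 ± 0.421 in PVASCs. Zc3hav1, the zinc finger antiviral protein gene, was lower by log2 fold changes of −1.74 in PVASCs and −1.27 in Ab-ASCs. Ilf2 was higher than in Sub-ASCs by 0.91 in PVASCs and by 1.39 in Ab-ASCs, and in PVASCs against Ab-ASCs 3 genes of the list were higher and 4 lower, with a median of −0.01 and a background of 24.7% of all genes higher and 32.1% lower.

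Transcripts of the interferons made at the end of these pathways were not measurable. None of 20 type I and III interferon genes had enough reads to be tested, 16 had no read in any library, and the highest count in any library was 3. Ifnb1, the main fibroblast interferon, had a single read, in PVASC replicate 2. With 3 reads in a library taken as measurable, the limit was up to 0.161 CPM in the smallest library. Single reads below that limit were not taken as a level. Of the type II interferon gene, Ifng, 64, 49 and 56 reads were counted in Sub-ASCs, none in Ab-ASCs, and 0, 17 and 0 in PVASCs, so that Sub-ASCs were at least 15.9-fold above Ab-ASCs when each Ab-ASC library is set to 3 reads. Interferon gamma is made by lymphoid cells, and the Ptprc level given above was likewise highest in Sub-ASCs. The part of such cells in the sensor levels was not tested.

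Interferon receptors and their signal transducers, listed with Ifng, were mostly highest in Sub-ASCs. Of the 11 genes, 10 were lower and 1 higher in PVASCs and likewise in Ab-ASCs (background 35.7% and 38.3% lower), with medians of −1.73 and −1.25 (also −1.25 with Ifng at its bound). The exception, identified from its values, was the receptor chain gene Ifngr2, at 85.2 ± 1.85 CPM (SD, n = 3) in Sub-ASCs, 156 ± 12.5 in Ab-ASCs and 139 ± 2.23 in PVASCs. Stat2, a transcription factor activated by type I interferon, was at 289.5 ± 6.73, 12.9 ± 0.291 and 21.2 ± 0.452 CPM (SD, n = 3), and its partner Irf9 at 68.6 ± 2.27, 12.4 ± 1.49 and 17.7 ± 0.981 CPM in Sub-ASCs, Ab-ASCs and PVASCs. Both were lowest in Ab-ASCs, and PVASCs exceeded Ab-ASCs by log2 fold changes of 0.72 and 0.52 (adjusted p = 5.98e-07 and 0.000336, edgeR's quasi-likelihood test). Irf1, an interferon-inducible transcription factor gene, was lowest in PVASCs, at 317 ± 15.6, 22.1 ± 2.26 and 15.2 ± 0.181 CPM. In PVASCs against Ab-ASCs 3 of the 11 genes were higher and 6 lower (background 24.7% of all genes higher and 32.1% lower), with a median of −0.17, and Ifnar2 was lower by a log2 fold change of −0.61.

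**Figure D5:**
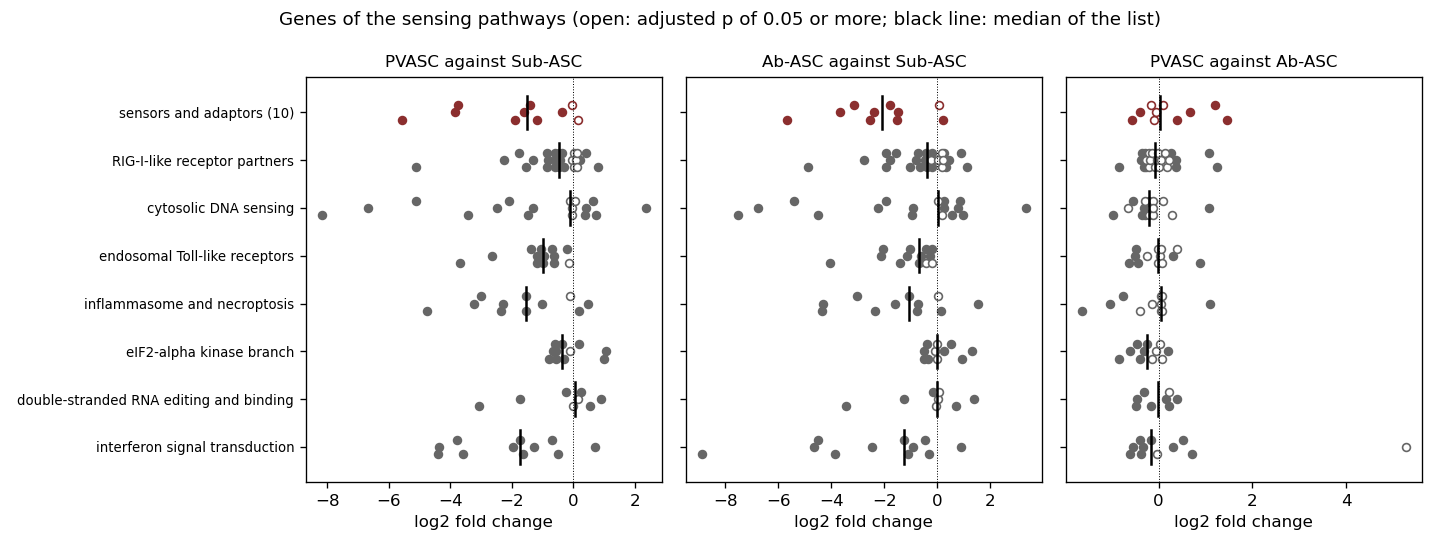
Log2 fold changes of the genes of each pathway list in the 3 pairs of groups, with 1 point per gene, filled where called by edgeR's quasi-likelihood test and open where not, and a line at the list median. The medians of the interferon signalling genes and of the inflammasome and necroptosis genes lie below −1 in both comparisons with Sub-ASCs, those of the DNA sensing and RNA editing lists lie near 0, and the open point of Ifng above 5 in PVASCs against Ab-ASCs rests on reads in a single library.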

How the data were processed

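Per the labels, RNA was extracted with TRIzol and libraries were made with the NEBNext Ultra kit. The authors deposited 1 table of raw read counts per gene with gene length, position and biotype. The submitters' processing notes name CASAVA 1.8, Bowtie 0.12.2 and featureCounts 1.5.0-p3 and the builds mm8 and mm10, without roles. Strandedness was not given in the sources used here. Start and end matched GENCODE M21 (GRCm38) for 98.1% of genes and for all 10 described here. The gene and pathway lists were chosen with earlier results of these data known.

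Counts were tested in R 4.3.3 with edgeR 4.0.16 (limma 3.58.1): filterByExpr, TMM, 1 fit of all 9 libraries without covariates, quasi-likelihood F-test, Benjamini-Hochberg adjustment. The SE is the absolute log2 fold change divided by the square root of F. Scripts were tested on simulated counts. Ratios had 0.5 reads added. Likeness used log2(CPM + 0.5). CPM refer to TMM-scaled library sizes. Intervals and limits from counts cover counting error only.

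Named genes were the 10 genes, a preset set of pathway genes (some are not reported here), the 2 largest called changes per list and comparison (fewer are described in the text), and the most similar gene for each; other genes are marker or overlapping genes, and Csf1r, Lyz2, Ly6a and Ifngr2 were singled out after their values were seen. Alternatives were RLE factors, DESeq2 1.42.0, filters of 1 read or of 10 reads in 3 libraries, only the compared groups, the replicate number as a block, other pseudocounts, TMM-scaled FPKM, and leaving out each library.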

Additional observations from a re-analysis of the deposited data

How the results depend on the processing

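Of 450 recomputed log2 fold changes of the 10 genes 441 kept direction and call, and 464 of 465 recomputed counts stayed within 1.5 times. With only the compared groups fitted, Irf3 was called in PVASCs against Sub-ASCs (log2 fold change 0.17, adjusted p = 0.0432, edgeR), lost its call in Ab-ASCs against Sub-ASCs (0.20, adjusted p = 0.0609) and turned to 0.017 in PVASCs against Ab-ASCs. Leaving out each library in turn gave, in PVASCs against Sub-ASCs, 0.07 to 0.20 for Irf3, called without Ab-ASC replicate 1 (adjusted p = 0.0411, edgeR), and −0.13 to 0.083 for Aim2, which was above 0 without Sub-ASC replicate 1 or PVASC replicate 2 (0.057). In PVASCs against Ab-ASCs it gave −0.099 to 0.31 for Zbp1 and 1 to 2 genes past the size limit. The cause was not tested.

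Deviations from the group mean in libraries with the same replicate number had correlations of −0.112 to 0.195. In 4 of 9 comparisons of a library with another group, the library of its own number correlated best. With 3 libraries per group these values cannot show whether libraries of the same number are related. The sources used here do not say what the numbers stand for. With the replicate number as a block 11458 genes in place of 11628 differed between PVASCs and Sub-ASCs, 9183 in place of 9396 between PVASCs and Ab-ASCs, and 12302 in place of 12442 between Ab-ASCs and Sub-ASCs, and no call among the 10 genes changed. The test of the Dhx58 to Ifih1 ratio among the 3 groups passed under the block (exact permutation within numbers, adjusted p = 0.0278). The Sub-ASC minus PVASC difference of that log2 ratio, not tested by itself, was 0.097 (0.037 to 0.14 leaving out each library). With TMM-scaled library sizes 15 of the mean FPKM values moved by more than their SD. Depth limits what can be said of Aim2, Tlr9, Ifng and the type I and III interferon genes.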
